A study of Rattus norvegicus with 34 samples.

Results

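Broad blocks of strong methylated-DNA signal were examined in rat sperm. A block is a run of at least 5 consecutive 1 kb windows on chromosomes 1 to 20, each with a mean signal from 1 to below 10 RPKM over 6 F1 control pools. RPKM is a library's read count in a window scaled to the window's length and to the library's reads. The rule found 5436 blocks that hold 31667 windows, out of 2618741 windows on these chromosomes and 2782040 windows in all. Because the F1 control values chose the blocks, number, length and control signal of the blocks are a description, and so are all their differences from F1 control.

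Signal came from methylated DNA immunoprecipitation sequencing (MeDIP-seq), in which an antibody against methylated cytosine pulls down DNA fragments before sequencing. Most cytosine methylation in mammals lies at CpG dinucleotides, and mature sperm DNA is methylated over most of its length, repeats included, while most CpG-rich promoters are left unmethylated. MeDIP signal rises with methylation, and also with the density of CpG sites and the number of copies of a sequence, so a strong window need not be more methylated per site than a weak one. Neither CpG density nor copy number was measured here, and no gene annotation of the Rnor_6.0 build of the files was used, so blocks are given by position alone.

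The rats were outbred Hsd:Sprague Dawley SD (Harlan). Pubertal F0 males received 8.5 mg/kg ifosfamide, an alkylating chemotherapy drug, into the peritoneum on days 26, 29 and 32 of age. F0 control males received 1.1 mL/kg phosphate-buffered saline instead. The F1 generation was bred from the F0 males, and the F2 generation from unrelated F1 animals of the same lineage, so no F1 or F2 rat was itself treated. Sperm was released from the cauda epididymis, and a brief sonication with washing served to remove somatic cells. The 3 groups are F1 control, F1 ifosfamide and F2 ifosfamide, with 6 pools each. DNA of 3 to 4 males made up an F1 pool and DNA of 8 to 9 males an F2 ifosfamide pool, so generation and pool size cannot be told apart. Lineage and generation differ together between F2 ifosfamide and F1 control. The labels list 34 libraries, of which 16, from F2 controls and F0 males, were not analysed here.

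Window counts per library totalled 23336048 to 34051679 in F1 control, 25531658 to 39440265 in F1 ifosfamide and 27424144 to 36309987 in F2 ifosfamide. A read was counted in 1.16 to 1.249 windows. A block collected 82 to 3501 counts in a pool, with a median of 296 and none at 0. F1 ifosfamide pools 1 and 2 differed least from each other over the blocks, at a chi-square of 1.77 per degree of freedom, and F1 ifosfamide pool 5 stood farthest from the rest of its group at 4.29 to 7.004. Pairs within the other groups lay at 1.71 to 3.30 in F1 control and 1.58 to 2.63 in F2 ifosfamide. Counting alone would give about 1, and more where a read counts in several windows. No pair differed by less than counting noise, so each pool was kept as 1 sample. P-values measure the spread between pools.

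The blocks were short. They covered 1.21% of the windows of chromosomes 1 to 20. Windows of 1 to below 10 RPKM, called strong windows below, made up 9.65% of these chromosomes, and 12.5% of the strong windows lay in blocks. The median control signal was 1.92 RPKM for a window in a block and 0.268 RPKM for a window of chromosomes 1 to 20 in all.

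Block length had a median of 5 kb and a mean of 5.83 kb. Blocks of 5 to 7 kb made up 5036 of the 5436, which is 92.6%. Only 121 blocks reached 10 kb, 13 reached 15 kb and 5 reached 20 kb. The mean control signal of a block ran from 1.07 to 6.79 RPKM with a median of 2.06, and 294 blocks had a mean of 3 RPKM or more.

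Runs became fewer with length, but not at an even rate. Control means gave 106917 single strong windows, 32605 runs of 2, 9177 runs of 3 and 5362 runs of 4. Runs of 3 were 0.281 times as many as runs of 2, while runs of 4 were 0.584 times as many as runs of 3. The ratio then stayed at 0.546 for 5 against 4 windows, 0.502 for 6 against 5 and 0.435 for 7 against 6, and dropped to 0.305 for 8 against 7. The ratio was thus lower at the steps to 2, to 3 and to 8 windows than at the steps between 3 and 7. Beyond 8 windows it was not steady, at 0.431 for 9 against 8 windows and 0.607 for 10 against 9, over 84 and 51 runs. Means of the F1 ifosfamide pools, which the rule did not use, gave 10593 runs of 3, 5874 of 4, 3231 of 5, 1671 of 6, 810 of 7 and 219 of 8. Means of the F2 ifosfamide pools gave 9408, 5545, 2825, 1294, 585 and 176 runs of the same lengths.

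**Figure D1:**
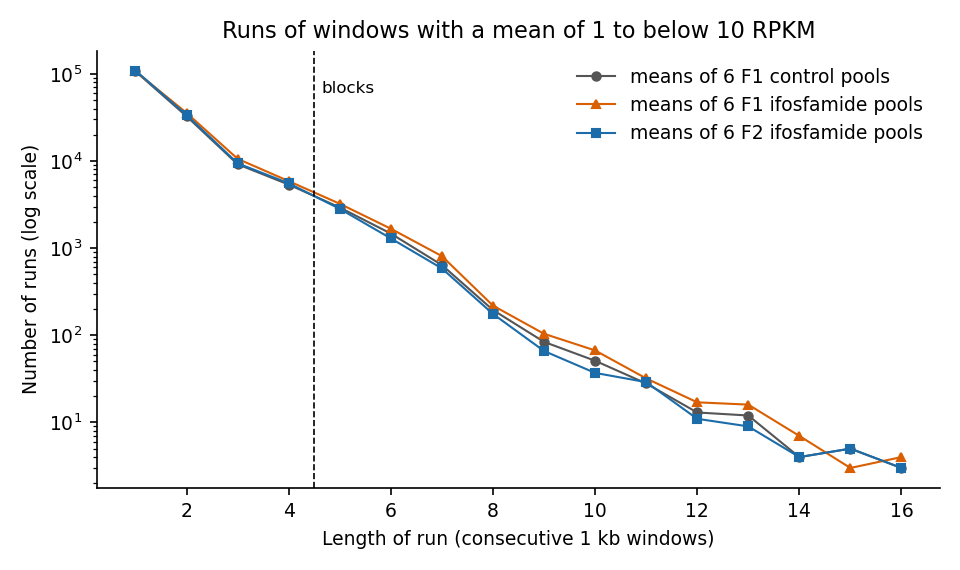
Number of runs (log axis) against run length in consecutive 1 kb windows of 1 to below 10 RPKM, up to 16 windows, from the means of 6 pools of each group; runs to the right of the dashed line are blocks. The fall from 3 to 4 windows is shallower than that from 2 to 3 in all 3 groups, for example 32605 runs of 2, 9177 of 3 and 5362 of 4 in F1 control.

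Longer runs also had stronger windows, in pools that did not choose them. In F2 ifosfamide the mean signal per window was 1.42 RPKM for single strong windows, 1.63 for runs of 2, 1.71 for runs of 3 and 1.93 for runs of 4. Inside blocks it was 2.07 RPKM at 5 windows, 2.08 at 6, 2.15 at 7 and 2.36 at 8 or more. In F1 ifosfamide the same means went from 1.41 for single windows to 2.19 at 5 windows and 2.502 at 8 or more.

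The rule ends a block where the control mean leaves its range, so a step in F1 control is set by the choice. Of the 10872 block ends, 10788 were followed by a window below 1 RPKM and 84 by a window of 10 RPKM or more. The next window was below 0.5 RPKM at 5137 ends (47.2%) and within 0.9 to 1 RPKM at 1164 ends (10.7%). In F2 ifosfamide, where the rule set no bound, the mean was 1.75 RPKM in the outermost window of a block and 0.644 RPKM in the window just outside it. Most block windows kept their range in that group, so this step is not independent of the choice. The F2 ifosfamide mean stayed near the outside level further out, with 0.576 RPKM 3 windows away and 0.546 RPKM 10 windows away. In F1 control the mean 10 windows away was 0.540 RPKM, against 0.439 RPKM over all windows of chromosomes 1 to 20. Windows beside single strong windows had a mean of 0.525 RPKM in F2 ifosfamide.

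**Figure D2:**
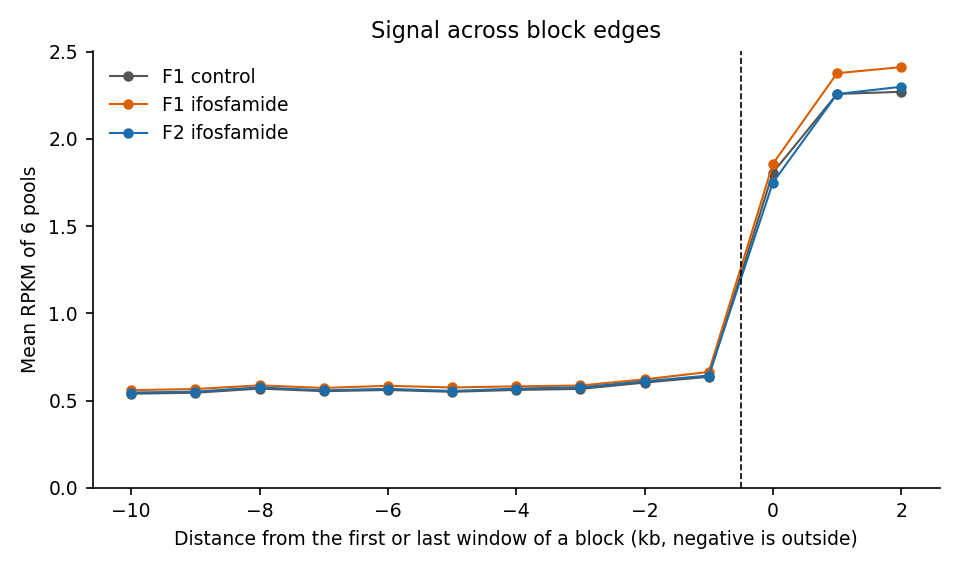
Mean RPKM of 6 pools per group (vertical axis) against distance in kb from the outermost window of a block, averaged over 10872 block ends; negative distances lie outside the block. In F2 ifosfamide the mean steps from 0.644 RPKM just outside to 1.75 RPKM in the outermost window, and the 3 groups share this shape.

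Outer windows of a block were weaker than inner ones. In F2 ifosfamide, the 2926 blocks of 5 windows had means of 1.76, 2.33, 2.19, 2.32 and 1.77 RPKM from the first window to the last. The 640 blocks of 7 windows had means of 1.67, 2.15, 2.43, 2.56, 2.41, 2.15 and 1.67 RPKM. Both profiles are close to symmetric, and the middle window was the highest at 7 windows but dipped below its neighbours at 5. Single blocks were more uneven: the strongest window was a median of 2.37 times the weakest in blocks of 5 windows and 3.15 times in blocks of 7. The strongest window was an end window in 22.8% of blocks of 5 windows, where an even spread over positions would give 40%, and was next to an end in 59.1%. The rule ends each block beside a window outside its range, which favours weaker ends also in groups that share the signal. An even spread is therefore not what the rule alone would give, and nothing is read from the weaker ends.

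The threshold passed through a continuum of signal. The 3 blocks just inside it, each of 5 windows, start at 161783001 on chromosome 3 and at 90929001 and 157063001 on chromosome 4, and their lowest window had a mean of 1.00 RPKM. The 3 runs of 4 windows just outside it start at 53412001, 86463001 and 90639001 on chromosome 1, and their next window had a mean of 0.998 RPKM. Of the 5362 runs of 4 windows, 582 had a neighbour of 0.95 RPKM or more.

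Blocks lay on every chromosome from 1 to 20 at 2.08 per megabase overall. Chromosome 10 had the lowest density, with 162 blocks at 1.44 per megabase and 0.824% of its windows covered. Chromosome 20 had the highest, with 146 blocks at 2.60 per megabase and 1.60% covered. Chromosomes rich in strong windows were not always rich in blocks. Chromosome 12 had 15.6% strong windows and only 7.93% of them in blocks, and chromosome 10 had 11.6% and 7.12%. Chromosome 2 had 8.14% strong windows, with 16.3% of them in blocks. Over the 20 chromosomes, which share the same libraries, the covered share had a Pearson correlation of 0.26 with the share of strong windows and 0.22 with mean signal.

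**Figure D3:**
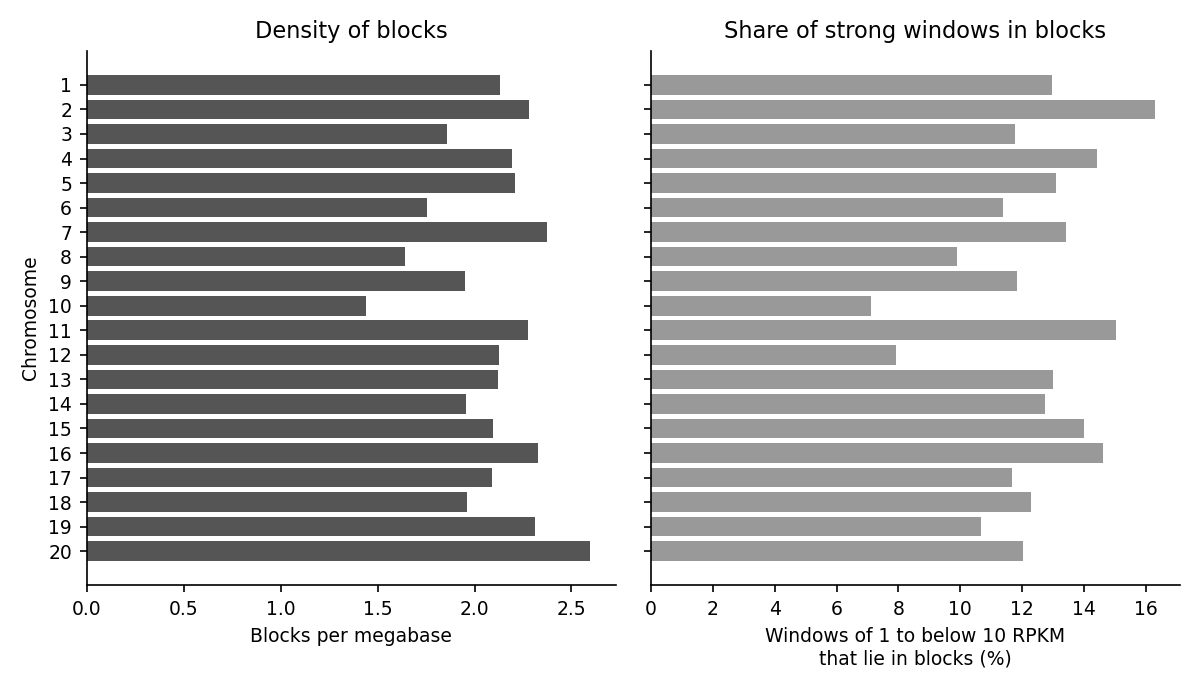
Blocks per megabase (left) and percent of strong windows that lie in blocks (right) for chromosomes 1 to 20, from means of 6 F1 control pools. Chromosome 10 has the shortest bar in both panels (1.44 per megabase and 7.12%), while chromosome 20 leads the left panel (2.60) and chromosome 2 the right (16.3%).

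Gaps between blocks varied widely. Between neighbouring blocks of a chromosome the median gap was 264 kb, with 476 kb of sequence outside blocks per block. Of 5416 gaps, 1519 (28.0%) were at most 100 kb, 268 (4.95%) were at most 10 kb and 43 were a single window. The longest gap, 6698 kb, ran from 70996001 to 77694000 on chromosome 10. Of 2629 megabase bins, 517 held no block and 257 held at least 5.

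The densest bins named a few neighbourhoods. The first megabase of chromosome 7 held 15 blocks, the longest of them 16 kb, with control means of 1.37 to 4.53 RPKM. The bin from 63000001 to 64000000 on chromosome 1 also held 15 blocks, up to 10 kb long. The bin from 39000001 to 40000000 on chromosome 1 held 14 blocks of up to 21 kb. On chromosome 2 the bin from 156000001 to 157000000 held 14 blocks, and 117 of its windows were in blocks, the most of any bin. On chromosome 16 the bin from 21000001 to 22000000 held 13 blocks, whose control means of 2.38 to 4.71 RPKM had a median of 3.33, above the 2.06 of all blocks.

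Near chromosome ends blocks were denser, and a larger share of the strong windows lay in them. Within 2 Mb of an end, 1.64% of windows were in blocks against 1.20% further in. Strong windows made up 8.01% there against 9.70% further in, and 20.5% of them were in blocks against 12.3%. These 218 blocks are 4.01% of all blocks, on 3.05% of the windows. Within 5 Mb, strong windows made up 9.85% against 9.64% further in, and 15.4% of them were in blocks against 12.3%.

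The 5 longest blocks were uneven stretches of strong windows. The longest, 27 kb on chromosome 19 from 26270001 to 26297000, had control windows of 1.13 to 7.71 RPKM. Its summed signal is given as CPM, the counts of the block scaled to the library's window counts with trimmed mean of M-values (TMM) factors. It was 60.9 to 69.3 CPM (median 64.9) in F1 control, 67.2 to 74.3 (median 70.4) in F1 ifosfamide and 58.1 to 78.3 (median 65.1) in F2 ifosfamide. The groups overlapped, and 2 of its windows averaged below 1 RPKM in F2 ifosfamide, at 0.97 and 0.95 RPKM.

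The 23 kb block on chromosome 8 from 126872001 to 126895000 was the flattest of the 5, with control windows of 1.11 to 2.67 RPKM. It had 27.5 to 39.5 CPM (median 34.4) in F1 control, 31.6 to 43.8 (median 36.2) in F1 ifosfamide and 32.1 to 36.1 (median 32.8) in F2 ifosfamide. Both 21 kb blocks were stronger, at means of 4.40 RPKM on chromosome 1 from 39524001 to 39545000 and 4.45 RPKM on chromosome 16 from 37750001 to 37771000. The second of these had 77.8 to 91.8 CPM in F2 ifosfamide and 75.5 to 91.7 CPM in F1 ifosfamide, with a log2 fold change between them of 0.00 ± 0.09 (SE, n = 6 and 6). The 20 kb block on chromosome 16 from 21789001 to 21809000 lies in the dense bin described above. Its F2 ifosfamide pools lay close together, at 73.0 to 77.3 CPM.

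The strongest block by control mean was 13 kb on chromosome 2 from 49316001 to 49329000, at 6.79 RPKM. It had 68.0 to 87.9 CPM (median 73.8) in F1 control, 52.9 to 102 (median 74.7) in F1 ifosfamide and 49.9 to 88.0 (median 53.5) in F2 ifosfamide. In F2 ifosfamide 5 pools lay at 49.9 to 56.2 CPM and pool 1 alone at 88.0 CPM. The log2 fold change of F2 over F1 ifosfamide was -0.33 ± 0.11 (SE, n = 6 and 6), with an adjusted p of 0.0979 by edgeR's quasi-likelihood test. The next strongest block, 10 kb on chromosome 16 from 22049001 to 22059000, had a control mean of 6.70 RPKM. It lay at 50.4 to 60.1 CPM in F1 ifosfamide and 57.7 to 65.4 CPM in F2 ifosfamide, with an adjusted p of 0.251.

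The 7 kb block on chromosome 1 from 100479001 to 100486000, with a control mean of 6.46 RPKM, rose toward 1 side, from 2.29 RPKM in its first window to 9.31 RPKM in its last. It had 22.5 to 47.6 CPM (median 26.4) in F1 ifosfamide and 36.0 to 47.0 (median 44.9) in F2 ifosfamide. F1 ifosfamide pools 1 and 2, at 47.6 and 39.4 CPM, lay within the F2 range or above it, and the other 4 pools at 22.5 to 27.3 CPM lay below it. Its log2 fold change was 0.46 ± 0.10 (SE, n = 6 and 6; adjusted p = 0.00836, edgeR). The adjusted p was 0.177 by DESeq2 and 0.0580 without F1 ifosfamide pool 3. The last 2 of the 5 strongest, on chromosome 1 from 215786001 to 215794000 and on chromosome 17 from 89459001 to 89465000, had means of 6.37 and 6.12 RPKM and did not pass the test.

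Most blocks kept their range in the other groups, which did not choose them. In the F1 ifosfamide mean, 96.5% of the block windows stayed between 1 and 10 RPKM, and 4438 blocks (81.6%) did so in every window. In the F2 ifosfamide mean the shares were 93.7% of windows and 3764 blocks (69.2%). Single F1 ifosfamide pools kept 3037 to 4193 blocks whole and single F2 ifosfamide pools 2628 to 3707, in each group fewer than its mean.

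The rule applied to F1 ifosfamide means gave 6190 blocks. Of the control blocks 89.7% overlapped that list, and 78.7% of that list overlapped a control block. Applied to F2 ifosfamide means it gave 5050 blocks, with 80.5% of the control blocks overlapping them and 86.6% of them overlapping a control block. Both bounds were identical for 3777 blocks with F1 ifosfamide and 3415 with F2 ifosfamide.

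The question of whether the blocks as a set took up more or less of the sperm signal was answered by the share of a pool's counts on chromosomes 1 to 20 that lay in blocks. This share was 5.65% to 6.17% in F1 control pools (median 5.89%), 5.75% to 6.29% in F1 ifosfamide (median 6.03%) and 5.61% to 5.98% in F2 ifosfamide (median 5.81%). The groups overlapped, with 3 F1 ifosfamide pools above every F2 ifosfamide pool. The mean was 6.01% ± 0.214 (SD, n = 6) in F1 ifosfamide and 5.80% ± 0.150 in F2 ifosfamide. The difference of -0.208 percentage points did not pass an exact two-sided permutation test over all divisions of the 12 pools (p = 0.0866, smallest possible 0.00216). Without F1 ifosfamide pool 5 it was -0.261 points with an exact permutation p of 0.0368.

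The number of windows counted per read also differed between pools. Over the 12 ifosfamide pools the 2 quantities had a Pearson r of 0.321 (permutation p = 0.308) and a Spearman rho of 0.364 (permutation p = 0.248), the only relation of this kind computed. Without the 2 pools farthest from the median number of windows per read, r was 0.506. Within F1 ifosfamide r was -0.04 and within F2 ifosfamide 0.41, each over 6 pools.

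**Figure D4:**
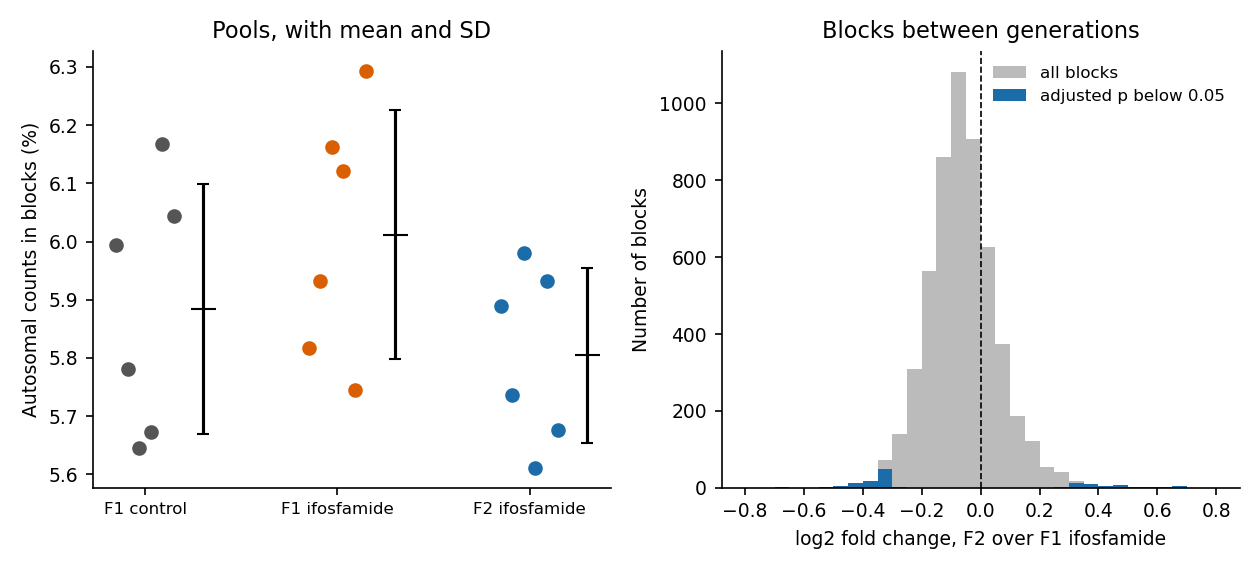
Left, percent of counts on chromosomes 1 to 20 in blocks, 1 point per pool, with the mean and SD of 6 pools per group; the axis does not start at 0. Right, number of blocks by log2 fold change of F2 over F1 ifosfamide, with the 137 called blocks in blue; 3975 of 5436 blocks lie below 0, and the groups on the left overlap.

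Between generations of the ifosfamide lineage, a small set of blocks differed. Neither group chose the blocks, so this comparison is independent of the rule. By edgeR's quasi-likelihood test with Benjamini-Hochberg adjustment over all rows of the genome, 137 of 5436 blocks (2.52%) had an adjusted p below 0.05, called here. Of these 50 were higher and 87 lower in F2 than in F1 ifosfamide. Among all 516088 rows tested, which are the blocks and stretches of up to 5 kb outside them, 1.56% were called, 0.912% higher and 0.651% lower. The shares of blocks and of all rows differ by a margin that depends on the pools included, as given below, and on the rows and test used. A row with more counts passes the test more easily, and blocks were not set beside rows of like counts. The median absolute log2 fold change was 0.0896 over blocks and 0.134 over all rows, so the higher called share is no sign of larger changes in blocks. With the filter on low counts at 30 in place of 10, the shares were 2.87% of blocks and 2.34% of all rows. With windows outside blocks kept as single 1 kb rows they were 2.45% and 2.13%. By DESeq2 they were 3.37% and 1.08%. At an unadjusted p below 0.05 there were 1045 blocks, 19.2% of blocks beside 14.4% of all rows.

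The sizes of the changes were modest. Called blocks had absolute log2 fold changes of 0.29 to 0.69 with a median of 0.35. None reached 2-fold and 8 passed 1.5-fold. The median SE over blocks was 0.09 on the log2 scale.

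Over all blocks the median log2 fold change was -0.07, against -0.00 over all rows. Values were below 0 in 3975 blocks (73.1%) and in 50.3% of all rows. Blocks share fragments and depth with their pools, so their number is no count of independent observations. Within an ifosfamide group, the median over blocks of a pool's deviation from its group mean had an SD of 0.0584 on the log2 scale. Normalization factors taken from the blocks alone place the median near 0 by construction. With them it was -0.01, and the called blocks were 90 higher and 23 lower in place of 50 and 87.

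The count of called blocks depended on single pools. Leaving out F1 ifosfamide pool 1 gave 277, pool 2 gave 219, pool 3 gave 46, pool 4 gave 87 and pool 6 gave 81. Leaving out F2 ifosfamide pool 2 gave 85, pool 3 gave 57, pool 4 gave 60, pool 5 gave 81 and pool 6 gave 74. The share called among all rows moved as well. Without F1 ifosfamide pools 1, 2, 3, 4 and 6 in turn, 5.10%, 4.03%, 0.846%, 1.60% and 1.49% of blocks were called beside 2.63%, 2.13%, 0.598%, 0.960% and 0.951% of all rows. Without F2 ifosfamide pools 2 to 6 in turn, 1.56%, 1.049%, 1.10%, 1.49% and 1.36% of blocks were called beside 1.03%, 0.653%, 0.714%, 1.02% and 0.955% of all rows. With the replicate number as a block the shares lay close together, at 1.14% of blocks and 1.04% of all rows. In called blocks 63.5% were lower, and this share fell below 50% without F1 ifosfamide pool 3 (47.8%), pool 4 (42.5%) or pool 5 (48.1%) and without F2 ifosfamide pool 3 (49.1%) or pool 4 (43.3%). The balance of higher and lower blocks therefore did not hold across pools.

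Single 1 kb windows tested one by one gave 833 of the 31667 block windows called (2.63%), 400 higher and 433 lower, beside 2.15% of 1062540 windows tested. These windows lay in 667 blocks. Of the 137 called blocks, 115 had a window that was called alone.

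Strong blocks were mostly higher where they were called. Blocks with a control mean of 3 RPKM or more had 20 higher and 5 lower among 294 (8.50%), and blocks below 3 RPKM had 30 higher and 82 lower among 5142 (2.18%). Over all 294 blocks of the first class the median log2 fold change was -0.0056, and over the 5142 of the second it was -0.068. The difference between these classes was not tested, and the split was not repeated without single pools. Neither class was set beside rows of like counts, so the 8.50% is not read as a trait of strong blocks. With normalization factors from the blocks alone, 23 of all 113 called blocks were lower, and that fit was not split by class. Length showed no such contrast, with 2.84% called at 5 windows, 1.77% at 6, 2.66% at 7 and 2.75% at 8 or more. By chromosome the share ran from 0.485% on chromosome 11 (1 of 206) and 0.493% on chromosome 2 (3 of 608, all lower) to 6.94% on chromosome 19 (2 higher and 8 lower of 144) and 8.04% on chromosome 12 (6 higher and 3 lower of 112). No share of all rows was taken per chromosome, and this split was not repeated without single pools, so no chromosome is singled out. In the 6 densest megabase bins 1 block was called, the 21 kb block on chromosome 1 at 39524001.

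That 21 kb block had 71.9 to 96.2 CPM (median 92.1) in F1 ifosfamide, 66.2 to 76.0 (median 66.8) in F2 ifosfamide and 65.2 to 88.9 (median 79.8) in F1 control. F1 ifosfamide pools 1 and 2 lay at 71.9 and 74.3 CPM, inside the F2 range, and the other 4 at 91.0 to 96.2 CPM, above it. The log2 fold change of this block was -0.32 ± 0.09 (SE, n = 6 and 6; adjusted p = 0.0366, edgeR). The call was lost under 9 of 22 alternatives, with adjusted p from 0.00470 to 0.121 over all of them. Those 9 were the replicate number as a block, and leaving out F1 ifosfamide pool 3, 4 or 6 or F2 ifosfamide pool 2, 3, 4, 5 or 6.

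The 5 blocks that rose most from F1 to F2 ifosfamide lay on chromosomes 14, 12, 7 and 8. The block on chromosome 14 from 108650001 to 108655000 had 8.09 to 20.7 CPM (median 12.0) in F1 ifosfamide and 18.3 to 26.6 (median 20.8) in F2 ifosfamide. The groups overlapped through F1 ifosfamide pool 1 at 20.7 CPM. Its log2 fold change was 0.69 ± 0.11 (SE, n = 6 and 6; adjusted p = 4.14e-05, edgeR), and the adjusted p was 0.0572 by DESeq2.

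The 5 kb block on chromosome 12 from 17078001 to 17083000 had 4.68 to 7.62 CPM (median 6.23) in F1 ifosfamide and 8.87 to 11.4 (median 9.71) in F2 ifosfamide. All 6 F2 pools lay above all 6 F1 ifosfamide pools, and F1 control, at 6.52 to 11.5 CPM (median 8.90), overlapped both. The log2 fold change of this block was 0.69 ± 0.09 (SE, n = 6 and 6; adjusted p = 7.77e-07, edgeR), and the call was kept under all 22 alternatives run for it. Its second window was its strongest, at 4.59 RPKM in F1 control and 5.13 RPKM in F2 ifosfamide, while window 4 was at 1.04 and 0.99 RPKM.

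The block on chromosome 8 from 23351001 to 23357000 was also separate between generations. It had 8.95 to 13.0 CPM (median 11.1) in F1 ifosfamide, 14.3 to 21.8 (median 17.6) in F2 ifosfamide and 9.78 to 19.2 (median 12.7) in F1 control. Its log2 fold change was 0.67 ± 0.09 (SE, n = 6 and 6; adjusted p = 1.16e-06, edgeR). The blocks on chromosome 7 from 12989001 to 12994000 and on chromosome 12 from 47712001 to 47719000 rose by 0.69 and 0.62 on the log2 scale. In both, F1 ifosfamide pools 1 and 2 were the highest of their group, at 17.8 and 15.8 CPM on chromosome 7 and 21.9 and 18.8 CPM on chromosome 12, and in both F2 ifosfamide pool 1 was the lowest of its group, at 14.0 and 18.1 CPM. The groups overlapped in both.

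The block that fell most from F1 to F2 ifosfamide was 5 kb on chromosome 14 from 4179001 to 4184000. It had 7.45 to 11.9 CPM (median 10.6) in F1 ifosfamide, 5.71 to 7.78 (median 5.98) in F2 ifosfamide and 7.30 to 10.8 (median 8.79) in F1 control. Only F2 ifosfamide pool 1 at 7.78 CPM reached into the F1 ifosfamide range. The log2 fold change of this block was -0.67 ± 0.10 (SE, n = 6 and 6; adjusted p = 3.83e-06, edgeR). All 5 of its windows had lower means in F2 ifosfamide than in F1 control, for example 2.62 RPKM in control and 1.74 RPKM in F2 ifosfamide for the second.

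The other 4 named blocks that fell lay on chromosomes 13, 16, 20 and 19. Their starts were 107372001, 2732001, 50196001 and 431001, and their log2 fold changes were -0.54, -0.50, -0.48 and -0.47. On chromosome 16 the pools were separate, at 7.31 to 10.1 CPM in F1 ifosfamide and 5.29 to 6.55 in F2 ifosfamide. They were also separate on chromosome 19, at 7.22 to 9.65 and 5.77 to 6.65 CPM. On chromosomes 13 and 20 they overlapped. All 4 calls were kept under all 22 alternatives run for them. In each, F1 ifosfamide pools 1 and 2 were the lowest of their group.

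**Figure D5:**
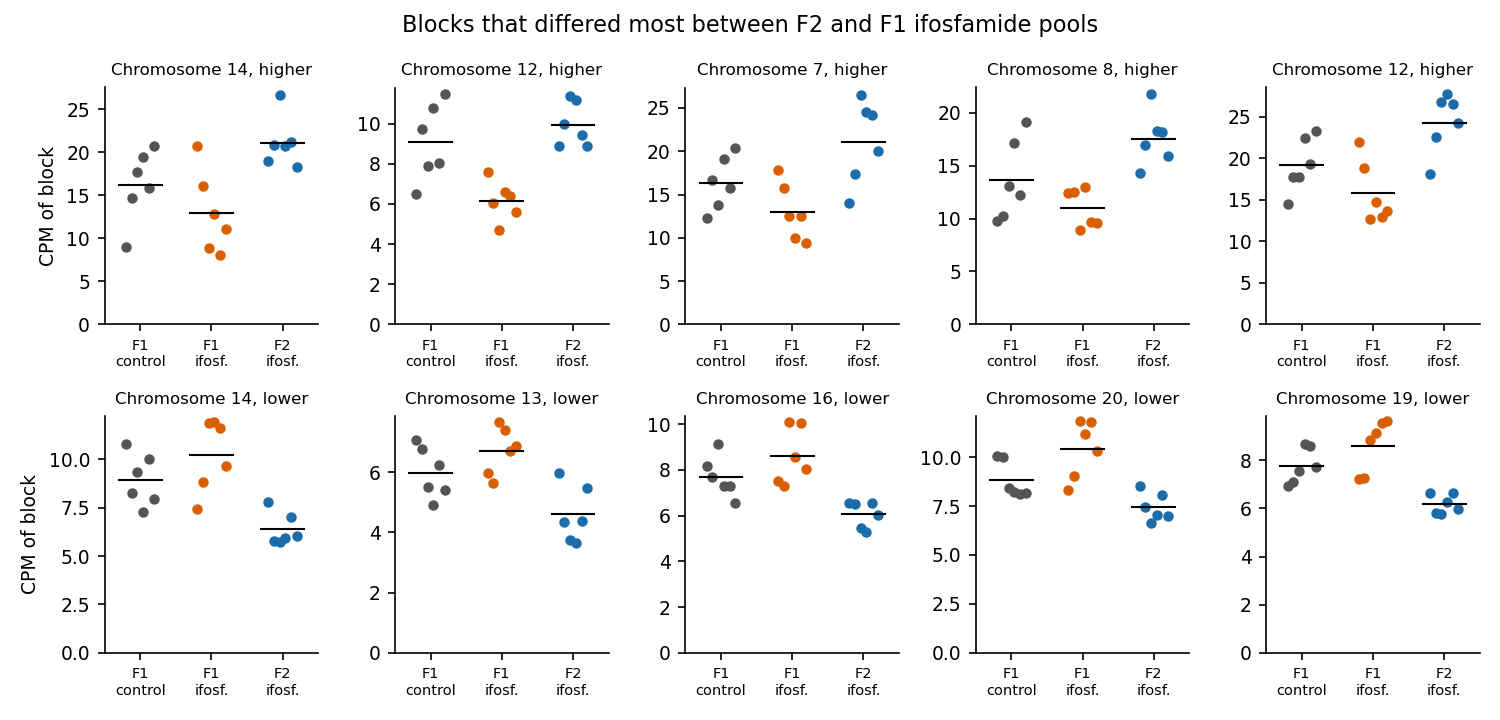
Summed signal in CPM (vertical axes from 0) of the 5 called blocks that rose most (top row) and the 5 that fell most (bottom row) from F1 to F2 ifosfamide, with 1 point per pool and a line at the mean of 6 pools for F1 control, F1 ifosfamide (F1 ifosf.) and F2 ifosfamide (F2 ifosf.). The control mean lies between both ifosfamide means in each panel, for example 9.08 CPM against 6.16 and 9.96 CPM in the second panel.

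Control levels lay between the generations in most called blocks. The F1 control mean was between both ifosfamide means in 49 of 50 higher and 86 of 87 lower blocks, and in 2783 of all 5436 blocks. In the higher blocks the median log2 fold change against F1 control was -0.23 for F1 ifosfamide and 0.19 for F2 ifosfamide. In the lower blocks it was 0.15 and -0.20. Both comparisons use the same control pools, and these blocks were picked for a difference between F1 and F2 ifosfamide, so the place of the control is not independent of that choice.

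Between F1 ifosfamide and F1 control, 1 of 5436 blocks was called, and it was lower. Among all 515485 rows tested 0.0471% were called, 0.0031% higher and 0.044% lower. Since the control pools chose the blocks, nothing is read from this count. The block is the one on chromosome 12 from 17078001 to 17083000, with 9.08 ± 1.91 CPM in F1 control and 6.16 ± 0.989 CPM in F1 ifosfamide (SD, n = 6 each). The groups overlapped at 6.52 to 11.5 and 4.68 to 7.62 CPM. Its log2 fold change was -0.56 ± 0.11 (SE; adjusted p = 0.00709, edgeR), and the call was lost without F1 control pool 2, 4 or 6 (adjusted p 0.0503, 0.0732 and 0.0955) or F1 ifosfamide pool 3 (0.103). Of single block windows 49 (0.155%) were called, 7 higher and 42 lower, beside 0.0598% of all windows tested. The control pools chose these windows too, so nothing is read from their count either. At an unadjusted p below 0.05 there were 339 blocks (6.24% of blocks, 6.68% of all rows), and the median log2 fold change over blocks was 0.04.

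Choosing the blocks on F2 ifosfamide pools made this comparison independent of the choice. Of those 5050 blocks 1 was called, beside 0.0495% of all rows, and 338 had an unadjusted p below 0.05 (6.69% of blocks, 6.68% of all rows). The called block, named after its values were seen, lies on chromosome 13 from 37316001 to 37321000 and shares no window with a control block. It had 8.45 ± 1.50 CPM in F1 control, 5.80 ± 0.819 in F1 ifosfamide and 10.4 ± 1.60 in F2 ifosfamide (SD, n = 6 each). Its log2 fold change of F1 ifosfamide over F1 control was -0.53 ± 0.10 (SE; adjusted p = 0.00720, edgeR). The F2 ifosfamide pools chose this block, so nothing is read from their level in it. The authors' deposited table for this comparison has 3 of 31667 block windows at an adjusted p below 0.05, against 223 of 992165 windows with a p-value.

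Between F2 ifosfamide and F1 control, 5 blocks were called, 4 higher and 1 lower, beside 0.0291% of 508137 rows (0.0195% higher and 0.00964% lower). Again nothing is read from the count. Of single block windows 24 (0.0758%) were called, 16 higher and 8 lower, beside 0.0311% of all windows tested, with the same limit. At an unadjusted p below 0.05 there were 358 blocks (6.59% of blocks, 8.64% of all rows), and the median log2 fold change was -0.03. The authors' deposited table has 10 of 31667 block windows at an adjusted p below 0.05, against 206 of 953578.

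The block on chromosome 9 from 103427001 to 103433000 was high in 4 of 6 F2 ifosfamide pools. It had 13.4 to 17.5 CPM (median 14.5) in F1 control, 11.8 to 16.7 (median 15.5) in F1 ifosfamide and 14.6 to 26.8 (median 24.5) in F2 ifosfamide. F2 ifosfamide pools 3 to 6 lay at 24.4 to 26.8 CPM, above every other pool, and pools 1 and 2 at 14.6 and 15.9 CPM lay within the F1 range. The difference lay mostly in windows 1 and 2, at 3.71 and 3.735 RPKM in F1 control and 7.47 and 7.73 in F2 ifosfamide. Windows 3 to 6 went from 3.38 down to 1.62 RPKM in F1 control and from 3.51 down to 1.60 in F2 ifosfamide. The log2 fold change of this block was 0.55 ± 0.09 against F1 control (SE, n = 6 and 6; adjusted p = 0.00131, edgeR; 0.159 by DESeq2) and 0.53 ± 0.10 against F1 ifosfamide (adjusted p = 6.06e-04, edgeR).

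The block on chromosome 1 from 11961001 to 11967000 had higher medians in both ifosfamide generations than in F1 control, but only F2 ifosfamide passed the test. The block had 15.6 to 31.5 CPM (median 20.4) in F1 control, 23.1 to 38.3 (median 30.6) in F1 ifosfamide and 27.4 to 38.9 (median 34.9) in F2 ifosfamide. F1 control pools 3 and 4, at 31.5 and 31.4 CPM, lay inside both ifosfamide ranges. Its log2 fold change against F1 control was 0.58 ± 0.10 in F2 ifosfamide (SE, n = 6 and 6; adjusted p = 0.00158, edgeR; 0.267 by DESeq2) and 0.42 ± 0.11 in F1 ifosfamide (adjusted p = 0.218). Its last window went from 9.37 RPKM in F1 control to 13.0 in F1 ifosfamide and 17.0 in F2 ifosfamide, which is above the limit of the rule. That limit held for the F1 control means alone, so a rise past it is not independent of the choice.

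On chromosome 14 the block from 46678001 to 46683000 had 13.5 ± 4.15 CPM in F1 control, 19.0 ± 4.90 in F1 ifosfamide and 18.9 ± 3.07 in F2 ifosfamide (SD, n = 6 each). Its call in F2 ifosfamide (log2 fold change 0.49, adjusted p = 0.0215, edgeR) was lost under 9 of 21 alternatives, with adjusted p up to 0.408. They were DESeq2's test, all 3 groups in 1 fit, and leaving out F1 control pool 2, 5 or 6 or F2 ifosfamide pool 2, 4, 5 or 6. The remaining higher block, outside the naming rule, lies on chromosome 5 from 91124001 to 91130000 (log2 fold change 0.46, adjusted p = 0.0371, edgeR). The lower block is the one on chromosome 14 at 4179001, at -0.49 ± 0.09 (SE; adjusted p = 0.00697, edgeR). That call was lost without F2 ifosfamide pool 3 (adjusted p 0.0628) or 4 (0.0503) and with all 3 groups in 1 fit (0.0708).

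With blocks chosen on F1 ifosfamide pools, 6 of 6190 were called between F2 ifosfamide and F1 control, 3 higher and 3 lower, beside 0.0293% of all rows. At an unadjusted p below 0.05 the share was 6.70% of these blocks and 8.66% of all rows. The 6 hold the blocks on chromosome 9 at 103427001 and on chromosome 14 at 4179001 and 46678001. The lowest adjusted p was 2.76e-05 for a block on chromosome 18 from 40876001 to 40881000, named after its values were seen, which shares no window with a control block. It had 7.23 ± 1.35 CPM in F1 control, 8.36 ± 3.71 in F1 ifosfamide and 4.37 ± 0.957 in F2 ifosfamide (SD, n = 6 each), and a log2 fold change of -0.72 ± 0.10 (SE). The F1 ifosfamide pools chose this block, so nothing is read from their level in it.

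Pools varied within each group by more than the counting of separate reads alone gives. The median coefficient of variation of a block's CPM was 9.35% in F1 control, 9.96% in F1 ifosfamide and 8.05% in F2 ifosfamide. Counting error alone would give 6.02%, 5.44% and 5.80% if each count were a separate read. It would give more where a read counts in several windows. The spread passed 30% in 3 blocks of F1 control, 8 of F1 ifosfamide and 1 of F2 ifosfamide, and 50% in none.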

How the data were processed

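Blocks were sought in 18 MeDIP-seq libraries of pooled sperm DNA. The submitters' processing notes name edgeR, SAMtools, Bowtie2, Trimmomatic and FastQC and the Rnor_6.0 build, with versions not given in the sources used here. Per the file headers, each deposited table gives read counts made by the authors for every 1 kb window, and RPKM values of the authors beside them, which were averaged per group to find blocks. The authors' deposited p-values were used only as counts of windows below 0.05, and the authors' deposited log2 fold changes were not used. Both tables hold the same windows and the same F1 control values.

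Counts were summed per block, and all windows outside blocks were summed in stretches of up to 5 kb. Each comparison was fitted on its 12 pools with edgeR 4.0.16 in R 4.3.3 (TMM normalization, filterByExpr with a minimum count of 10, two-sided quasi-likelihood test, Benjamini-Hochberg adjustment over all rows tested). All 5436 blocks passed that filter. CPM uses TMM factors over the 18 libraries. Fits with DESeq2 1.42.0, other filters, normalizations, block rules, a replicate block and left-out pools were alternatives. The fit was tested on simulated data.

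The pools were not paired by replicate number, since the correlation of same-numbered pools passed 0.1 in 0 of 6 pairs between F2 and F1 ifosfamide and in 1 of 6 in each comparison with F1 control. Named blocks are the 5 longest, the 5 strongest by control mean, the 5 called blocks with the highest and the 5 with the lowest log2 fold change between F2 and F1 ifosfamide, up to 3 called blocks per direction in the other comparisons, and 3 runs on either side of the threshold. The block rule, these lists and the tests were chosen with earlier results of these data known. Gene annotation and sequences of the Rnor_6.0 build were not used here, so gene families planned for counting were left out.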

Additional observations from a re-analysis of the deposited data

Results flagged for a closer look

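In 81 groups of 6 pools, covering each named block and the share of counts in blocks in each group, the gap between an extreme pool and its nearest neighbour was set against Dixon's 95% limit for 6 values, a share of the group's range. Chance passes that limit in about 1 in 20 groups, and 3 passed it. In the 13 kb block on chromosome 2 at 49316001, F2 ifosfamide pool 1 had 88.0 CPM, while the next highest pool had 56.2 CPM. In the 10 kb block on chromosome 16 at 22049001, F1 control pool 4 had 64.6 CPM and the next highest pool 57.6 CPM. In the 5 kb block on chromosome 14 at 108650001, F2 ifosfamide pool 3 had 26.6 CPM and the next highest pool 21.1 CPM.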

How the results depend on the processing

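The number of blocks was 10798 for runs of at least 4 windows, 121 for at least 10, 2766 with a stricter lowest window mean and 2172 with every control pool at 1 or above, and 5277 to 5690 without 1 control pool each. For F2 against F1 ifosfamide the 137 called blocks (2.52% of blocks beside 1.56% of all rows) became 62 with a replicate block. Of these 62, 32 were higher and 30 lower, so 48.4% lower (1.14% of blocks beside 1.04% of all rows). Windows per read as a covariate gave 379, 81 higher and 298 lower (6.97% beside 3.17%). Runs of at least 4 windows gave 317 (2.94% beside 1.54%) and runs of at least 10 gave 2 (1.65% beside 1.57%). The stricter lowest window mean gave 77 (2.78% beside 1.56%), and F1 ifosfamide pools 1 and 2 summed gave 209 (3.84% beside 1.96%). By another measure, 667 blocks had a called single window (2.63% of block windows beside 2.15% of all windows tested). Without 1 pool each the called blocks were 46 to 277. Lower blocks were 63.5% of those called, but 20.4% with TMM factors from the blocks alone, 47.7% with blocks chosen on F2 ifosfamide and 42.5% to 74.0% without 1 pool each. The normalization from the blocks alone, the single windows, and the summed pools were chosen after seeing the data. Blocks chosen on F2 ifosfamide favour higher values in that group, so nothing is read from the 47.7%. The median log2 fold change over blocks stayed below 0 in all 27 alternatives run for it, which reuse the same pools. It was nearest 0 at -0.01 with factors from the blocks alone, which place it near 0 by construction, so nothing is read from that sign.

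For F1 ifosfamide against F1 control the 1 called block (0.0184% of blocks beside 0.0471% of all rows) became 8 with DESeq2 (0.147% beside 0.0355%). By edgeR it became 8 with the windows-per-read covariate (0.147% beside 0.0673%) and 2 with factors from the blocks alone (0.0368% beside 0.0417%). It became 4 for runs of at least 4 (0.0370% beside 0.0492%) and 2 with pools 1 and 2 summed (0.0368% beside 0.0639%). It became 0 for runs of at least 10 (4 at an unadjusted p below 0.05), with the stricter mean (185) and with blocks chosen on F1 ifosfamide (460). All rows were then called at 0.0470%, 0.0499% and 0.0497%. By another measure, 46 blocks had a called single window. Without 1 pool each the called blocks were 0 to 10. Without F1 control pools 1 to 5 in turn they were 10, 0, 2, 2 and 2. These are 0.184%, 0%, 0.0368%, 0.0368% and 0.0368% of blocks beside 0.150%, 0.0301%, 0.0376%, 0.0206% and 0.0597% of all rows. Without F1 ifosfamide pools 1, 3, 4 and 5 in turn they were 5, 0, 3 and 3. These are 0.0920%, 0%, 0.0552% and 0.0552% of blocks beside 0.127%, 0.0227%, 0.0636% and 0.0499% of all rows. For F2 ifosfamide against F1 control the 5 called blocks (0.0920% of blocks beside 0.0291% of all rows) became 2 with DESeq2 (0.0368% beside 0.00669%). By edgeR they became 2 with all 3 groups in 1 fit (0.0368% beside 0.00711%) and 18 with a replicate block (0.331% beside 0.0722%). They became 8 with factors from the blocks alone (0.147% beside 0.0344%). Runs of at least 10 gave 0 (8 at an unadjusted p below 0.05, edgeR), beside 0.0236% of all rows. By another measure, 21 blocks had a called single window. Without 1 pool each the called blocks were 2 to 20. Without F1 control pools 2, 4, 5 and 6 in turn they were 3, 13, 3 and 15. These are 0.0552%, 0.239%, 0.0552% and 0.276% of blocks beside 0.00784%, 0.0698%, 0.0166% and 0.0846% of all rows. Without F2 ifosfamide pools 1, 4, 5 and 6 in turn they were 20, 2, 3 and 3. These are 0.368%, 0.0368%, 0.0552% and 0.0552% of blocks beside 0.114%, 0.00861%, 0.00997% and 0.0131% of all rows. The cause of these moves was not tested, apart from fewer or more blocks and pools entering.

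The share of counts in blocks differed by -0.0152 points for runs of at least 10 windows (exact permutation p = 0.0130) and by -0.275 points with blocks chosen on F1 ifosfamide (exact permutation p = 0.0390). With blocks chosen on F1 control the difference was -0.261 to -0.151 points without 1 pool each. A replicate number shared between groups is only a number here. Whether a call lost with the replicate block marks a weaker effect was not tested. With 6 pools per group and a median of 296 counts per block, no block with an absolute log2 fold change below 0.29 was called between F2 and F1 ifosfamide.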
